A study of Mus musculus with 3 samples.

Results

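Ppp1r15a and 9 other genes of the integrated stress response and the neighbouring unfolded-protein and mTORC1 pathways were followed in chromatin-bound RNA of mouse macrophages. They were chosen by symbol from the annotation that accompanies the quantified transcripts, and entries that share a symbol were summed. The 10 genes (Ppp1r15a, Ppp1r15b, Atf4, Ddit3, Ddit4, Trib1, Trib3, Chac1, Xbp1 and Sesn2) cover 11 of the 55536 gene identifiers in the tables and 24 of 141864 transcripts, and Ddit3 alone has a second identifier. The cells were bone-marrow-derived macrophages of strain C57BL/6J, primary cells treated with lipid A, the membrane-anchoring part of endotoxin and a ligand of TLR4, at 100 ng/ml for 30 min. Total RNA of the chromatin fraction was sequenced after depletion of ribosomal RNA, so nascent and nucleus-retained RNA were read together. All 3 libraries belong to 1 group, made from 1 µg, 250 ng and 500 ng of RNA in libraries 1, 2 and 3. No untreated library was analysed here, so the values below are levels after treatment and no induction can be read from them. The labels number the libraries as biological replicates of 1 donor record, sex and age were not collected, and each SD describes the spread between these libraries only.

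In the integrated stress response, kinases that sense viral RNA, lack of amino acids, lack of haem or unfolded protein in the endoplasmic reticulum phosphorylate the translation factor eIF2. General translation falls, while the mRNA of the transcription factor ATF4 is translated through its upstream open reading frames, so the amount of Atf4 RNA alone does not report ATF4 protein. ATF4 and its target CHOP, encoded by Ddit3, switch on Trib3, Chac1, Sesn2, Ddit4 and Ppp1r15a, whose product GADD34 brings protein phosphatase 1 to eIF2 and ends the response. In macrophages the pathway is also known to bear on cytokine production after TLR stimulation.

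Library totals were 16301150, 17033725 and 16205704 expected counts on annotated genes in libraries 1, 2 and 3. A mean of at least 10 expected counts over the libraries was taken as detection, which 14396 genes passed, 10983 of them protein-coding. All 8 macrophage markers were detected, with a median of 92.9 ± 15.2 TPM (SD over 3 libraries; TPM is the level per length, scaled to a fixed total). Of 18 markers of T, B, neutrophil, dendritic, stromal and erythroid cells 4 were detected and 5 had 0 counts in every library. The 4 were the dendritic cell marker Zbtb46, highest at 0.62 TPM, and all 3 stromal markers, of which Col1a1 had 2, 31 and 31 expected counts in libraries 1, 2 and 3, Col1a2 3, 25 and 27, and Col3a1 0, 24 and 18. Genes shorter than 300 nt held 72.9%, 66.3% and 56.7% of TPM in libraries 1, 2 and 3, and the median of detected protein-coding genes was 3.48, 4.45 and 6.88 TPM in the same order. TPM is relative to these, so CPM, counts scaled to a fixed total with no length correction, are given beside the TPM of the detected genes where libraries are set against each other.

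Ppp1r15a stood far above the other 9 genes in every library. It reached 184, 99.8 and 531 TPM in libraries 1, 2 and 3, a mean of 271 ± 228 TPM (SD, n = 3), from 11898, 5928 and 17104 expected counts. In CPM it had 730, 348 and 1055 in the same order. Library 3 was highest and library 2 lowest on both scales, with a ratio of 5.32 in TPM and 3.03 in CPM, and leaving out library 3 lowered the mean to 142 TPM. By TPM it ranked 98th, 280th and 34th of the 10983 detected protein-coding genes in libraries 1, 2 and 3. Ppp1r15a held 72.9%, 55.7% and 82.05% of the summed TPM of the 10 genes in libraries 1, 2 and 3, and 75.8%, 60.1% and 83.0% of their summed counts. The gene lies on the minus strand of chromosome 7, at 45522916 to 45526268 of build mm10, and its last 717 bases run through the end of Tulp2 on the other strand. Tulp2 had 7.98, 4.85 and 14.0 TPM and 23.7, 12.3 and 25.4 CPM in libraries 1, 2 and 3, low in library 2 and high in library 3 as Ppp1r15a was. Because the strand setting of the counting is not given in the sources used here, reads in the shared bases could not be assigned to either gene, and the part of Tulp2 in these values was not tested.

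The 250 bases upstream of the RefSeq start of Ppp1r15a are shown because they hold, in capitals, a complete cyclic AMP response element (CRE, TGACGTCA), the palindrome bound by CREB and ATF family factors. The window is chr7:45526269-45526518 on the minus strand of GRCm38.p6, printed 5′ to 3′, and the element spans positions -12 to -5 from the start.
Ppp1r15a upstream: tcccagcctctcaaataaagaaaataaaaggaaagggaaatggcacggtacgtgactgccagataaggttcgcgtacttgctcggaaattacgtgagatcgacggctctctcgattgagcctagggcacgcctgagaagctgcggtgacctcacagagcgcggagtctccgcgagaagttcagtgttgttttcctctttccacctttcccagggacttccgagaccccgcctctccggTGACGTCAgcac

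RefSeq promoter windows, 250 bases before to 50 after the start, were found for 8 of the 10 genes, all except Ppp1r15b and Trib1. Ppp1r15a alone of the 8 held a CRE on either strand, against 588 of 32851 promoter windows of the same length (1.79%). A TATAAA was present in the windows of Ppp1r15a and Trib3, against 13.6% of all windows. It lay after the start in Ppp1r15a, at positions 16 to 21, and at -166 to -161 in Trib3. The C/EBP-ATF response element (CARE, TGATGNAA), the composite site that ATF4 binds with a C/EBP partner, was present in the windows of Chac1 and Trib3, against 1304 of 32851 windows (3.97%). Atf4 and Ddit4 held a match to the kappaB pattern (GGGA and CC with 4 bases between them), against 20.7% of windows. The endoplasmic reticulum stress element (CCAAT and CCACG with 9 bases between them) was found in 0 of the 8 windows and in 0.119% of all windows, and the CArG box of serum response factor in 0 of the 8 and in 1.63% of all. The patterns were searched as letters on both strands, and a match describes the sequence, not occupancy.

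Chac1 and Trib3, the pair with a CARE in the window, were the pair of lowest genes. Chac1 encodes a gamma-glutamylcyclotransferase that degrades glutathione, and it had 0.10, 0 and 0.22 TPM from 4, 0 and 5 expected counts in libraries 1, 2 and 3. Trib3, a pseudokinase induced through ATF4 and CHOP, had 0.18, 0.05 and 0.41 TPM from 4, 2 and 12 expected counts. Both lay under the detection minimum, with mean counts of 3 and 6, and the 0 counts of Chac1 in library 2 allow up to 3 counts, or 0.176 CPM, counting error only. Leaving out library 3 lowered the mean of Chac1 to 0.05, against 0.107 ± 0.110 TPM over 3 libraries, and that of Trib3 to 0.115, against 0.213 ± 0.182 TPM. The Chac1 element, in capitals below, reads TGATGCAA on the other strand and spans positions -193 to -186. The window is chr2:119350992-119351241 on the plus strand of GRCm38.p6. The Trib3 element reads TGATGTAA on the other strand and lies just after the RefSeq start, at positions 15 to 22. Only chr2:152344029-152344056 on the minus strand is therefore shown. The annotated Trib3 gene used for the levels starts at 152344032, downstream of the element.
Chac1 upstream: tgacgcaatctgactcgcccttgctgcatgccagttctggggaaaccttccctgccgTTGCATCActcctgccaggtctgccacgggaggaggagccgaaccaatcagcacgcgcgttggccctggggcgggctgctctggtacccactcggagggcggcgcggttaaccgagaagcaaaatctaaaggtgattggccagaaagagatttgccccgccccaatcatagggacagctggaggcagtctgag
Trib3 site: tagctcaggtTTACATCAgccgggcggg

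**Figure D1:**
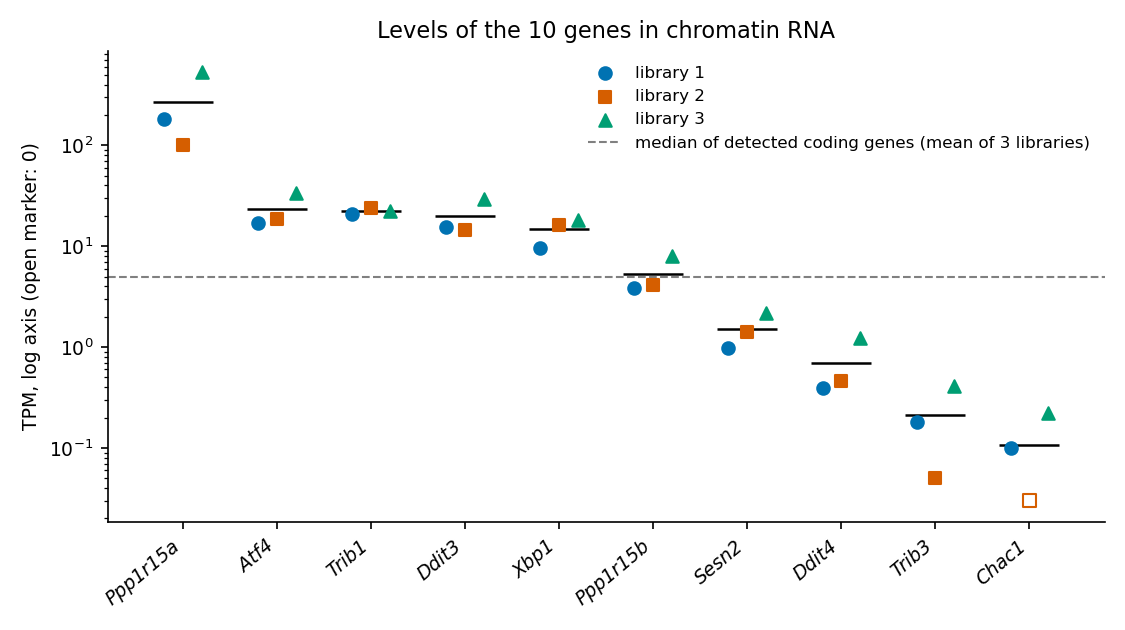
TPM of each of the 10 genes (log axis) in library 1 (circles), library 2 (squares) and library 3 (triangles), with the mean as a bar and the mean over libraries of the median of detected protein-coding genes as a dashed line. Ppp1r15a lies between 99.8 and 531 TPM, a middle group of 4 genes between 9.66 and 33.8 TPM, and Trib3 and Chac1 at or under 0.41 TPM, with the 0 of Chac1 in library 2 drawn as an open square.

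Ppp1r15b, the constitutive partner of Ppp1r15a, encodes CReP, which brings the same phosphatase to eIF2 without stress. It had 3.83, 4.16 and 8.04 TPM in libraries 1, 2 and 3, a mean of 5.34 ± 2.34 TPM from 512, 490 and 624 expected counts. Its values lay close to the median detected protein-coding gene in each library in this quantification. In a second one, also deposited by the authors, it had 3.82, 2.98 and 6.13 TPM in libraries 1, 2 and 3. These lay below medians of 7.09, 6.10 and 10.7 TPM there. Ppp1r15a exceeded Ppp1r15b by 5.55, 4.55 and 6.03 in log2(TPM + 0.1) in libraries 1, 2 and 3, a mean difference of 5.38 ± 0.75 that corresponds to 41.5-fold. The difference had the same sign in 3 of 3 libraries, and an exact permutation test that flips signs, two-sided, had p = 0.25, the smallest value that 3 libraries allow, and 0.25 after adjustment over 4 contrasts. The ranges did not overlap, since the lowest Ppp1r15a value was 99.8 TPM and the highest Ppp1r15b value 8.04 TPM. Ppp1r15b lies on the plus strand of chromosome 1, at 133131143 to 133139783.

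The transcription factors Atf4, Ddit3 and Xbp1 formed a middle group. Atf4 had 16.9, 18.8 and 33.8 TPM in libraries 1, 2 and 3 (mean 23.1 ± 9.28), from 762, 761 and 910 expected counts. Its 46.7, 44.7 and 56.2 CPM were closer together than its TPM. Ddit3, whose protein CHOP pairs with C/EBP factors and promotes cell death in prolonged stress, had 15.6, 14.4 and 29.4 TPM (mean 19.8 ± 8.36) from 308, 244 and 321 expected counts. In CPM Ddit3 had 18.9, 14.3 and 19.8, with library 2 lowest on both scales. Atf4 exceeded Ddit3 by 0.23 ± 0.14 in log2(TPM + 0.1), in 3 of 3 libraries (exact sign-flip permutation p = 0.25, adjusted 0.25). This order depended on the quantification. In the second table that the authors deposited, Atf4 had 20.7 ± 6.66 TPM and Ddit3 59.7 ± 20.5 TPM, and the difference was -1.51 ± 0.08. The second Ddit3 identifier, a 105-nt entry inside the gene, gave 29.6, 24.3 and 43.5 of those TPM from 12.5, 14.4 and 17.3 estimated counts in libraries 1, 2 and 3, while the first quantification listed it at 0. Without that entry, an alternative chosen after seeing the data, Atf4 was still below Ddit3, by -0.36 ± 0.22.

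Xbp1 encodes the factor whose mRNA the sensor IRE1 splices in the unfolded-protein response. It had 9.66, 16.1 and 18.3 TPM in libraries 1, 2 and 3, a mean of 14.7 ± 4.50 TPM from 267, 375 and 303 expected counts. Library 1 was lowest on both scales, at 16.4 CPM against 22.02 and 18.7 CPM in libraries 2 and 3. The annotation used holds no Xbp1 transcript with the 26-base intron that IRE1 removes, its shortest Xbp1 intron being 300 bases, so spliced and unspliced Xbp1 mRNA were counted as one. Atf4 lies on the plus strand of chromosome 15 at 80255184 to 80257541, Ddit3 on the plus strand of chromosome 10 at 127290774 to 127296288 and Xbp1 on the plus strand of chromosome 11 at 5520659 to 5525893. Ddit3 shares its last 68 bases with Mars and its first 15 with Gm4189, both on the other strand, and Mars had 4.87, 4.01 and 7.06 TPM.

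The 2 tribbles pseudokinases were far apart. Trib1, an adaptor that brings C/EBP alpha to the ubiquitin ligase COP1 and is known for its part in macrophage differentiation, had 20.6, 24.1 and 22.5 TPM in libraries 1, 2 and 3 (mean 22.4 ± 1.74). Its counts, 1847, 1933 and 1193, were the second highest of the 10 genes, and library 3 was lowest at 73.6 CPM, against 113 and 114 CPM in libraries 1 and 2. Trib1 thus had the smallest SD of the 8 detected genes relative to its mean in TPM, but not in CPM. Trib1 exceeded Trib3 by 6.21, 7.33 and 5.47 in log2(TPM + 0.1) in libraries 1, 2 and 3, a mean of 6.34 ± 0.94 (higher in 3 of 3, exact sign-flip permutation p = 0.25, adjusted 0.25). Trib3 was under the detection minimum, so the size of this difference depends on the pseudocount. With pseudocounts of 1 and 0.01 it was 4.28 and 7.05. Trib1 lies on chromosome 15 at 59648350 to 59657099 (plus strand) and Trib3 on chromosome 2 at 152337422 to 152344032 (minus strand).

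Ddit4 and Sesn2, a pair of stress-induced inhibitors of mTORC1, were detected at low levels. Ddit4, whose product REDD1 acts through the TSC complex, had 0.39, 0.46 and 1.22 TPM in libraries 1, 2 and 3 from 16, 17 and 30 expected counts. Sesn2, a leucine sensor that binds GATOR2, had 0.97, 1.40 and 2.18 TPM from 85, 111 and 114 expected counts. Ddit4 was below Sesn2 in 3 of 3 libraries, by -1.11 ± 0.32 in log2(TPM + 0.1) (exact sign-flip permutation p = 0.25, adjusted 0.25), and both had their highest TPM in library 3. In CPM Ddit4 had 0.98, 1.00 and 1.85 and Sesn2 5.21, 6.52 and 7.04 in libraries 1, 2 and 3, again highest in library 3. After scaling by trimmed mean of M-values, the log2 CPM of Sesn2 was 2.47, 2.75 and 2.71, highest in library 2. That of Ddit4 was still highest in library 3, at 0.80. Leaving out library 3 lowered the mean of Ddit4 to 0.425 TPM, against 0.69 ± 0.46 TPM over 3 libraries. Sesn2 (chromosome 4, 132492032 to 132510501, minus strand) shares 6089 bases with Gm12981 on the same strand, which had 2.65, 2.00 and 3.51 TPM, so reads in the shared bases could belong to either. Ddit4 lies on the minus strand of chromosome 10 at 59949669 to 59951834.

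In all, 8 of the 10 genes were detected, against 25.9% of all 55536 genes and 49.9% of the 22028 protein-coding genes, and 6 of the 10 had a mean TPM above the median of detected protein-coding genes. Ppp1r15b was among the 6, but in the second table its mean of 4.31 TPM lay below the median of 7.96 TPM. Ppp1r15a was first and Ppp1r15b, Sesn2, Ddit4, Trib3 and Chac1 were 6th to 10th in that order in every library. Between them the places of Atf4, Trib1, Ddit3 and Xbp1 changed from library to library. Atf4 was above Trib1 in 1 of 3 libraries, Trib1 above Ddit3 in 2 of 3 and Ddit3 above Xbp1 in 2 of 3, and each of these neighbours differed by less than the SD of its difference. The authors' 95% credible intervals of TPM overlapped in all 3 libraries for Ddit4 and Trib3 and for Trib3 and Chac1, so the order at the bottom is not resolved within a library.

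Among the libraries Ppp1r15a varied most of the 8 detected genes. Its log2 CPM, scaled by trimmed mean of M-values (TMM), was 9.59, 8.49 and 9.93 in libraries 1, 2 and 3, a range of 1.45. The 149 genes within 0.5 of its level had a median range of 0.53, and its range exceeded 96.6% of theirs. The width of its range rested on library 2. Between libraries 1 and 3 alone, Trib1 lay farther apart, at 6.90 and 6.09, than Ppp1r15a, at 9.59 and 9.93. Trib1 had the next widest range, 0.81 against a median of 0.39 among genes of like level, with library 3 lowest. Atf4 was the steadiest, with a range of 0.18 against 0.39, and Ppp1r15b had 0.27, Sesn2 0.28, Xbp1 0.39, Ddit3 0.43 and Ddit4 0.72. edgeR's quasi-likelihood test asked whether a gene spread between libraries by more than genes of like abundance do. It called 0 of 13309 genes (0%) at a Benjamini-Hochberg adjusted p under 0.05, with 655 under 0.05 before adjustment. A share of about 0.05 of the genes falls under 0.05 when no gene stands out. Because the prior is fitted to these same genes, the test cannot tell whether the libraries agree. Ppp1r15a was one of those 655 (unadjusted p = 0.0263, Benjamini-Hochberg adjusted p = 0.946 by edgeR). Without library 2 its unadjusted p by edgeR was 0.515. The other 7 tested genes had edgeR adjusted p values of at least 0.99. The starting RNA differed between the libraries as the labels give it, and its part in the spread was not tested.

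**Figure D2:**
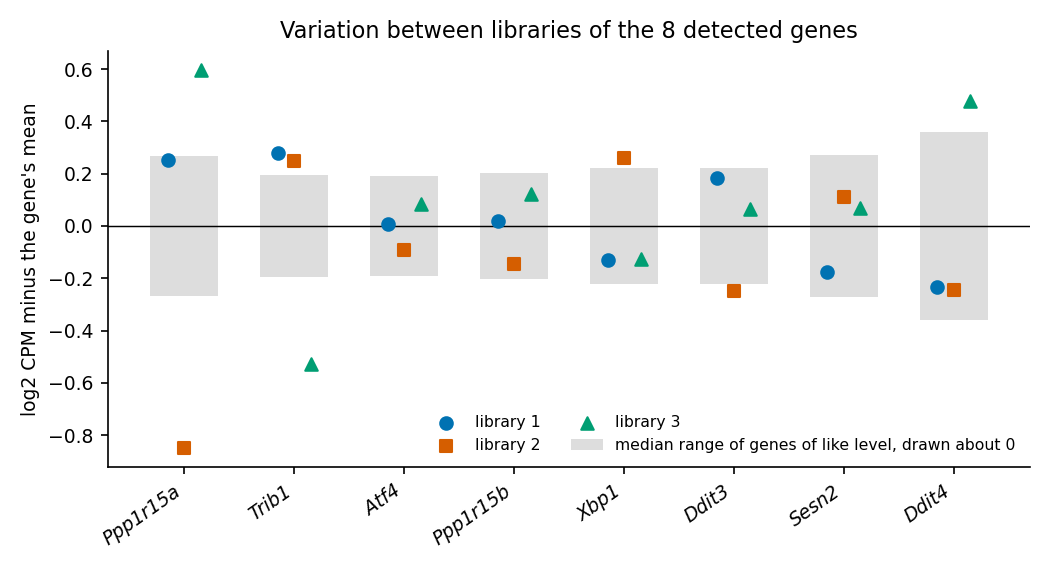
Log2 CPM of the 8 detected genes in each library, as the difference from the gene's own mean, with the median range of genes of like level as a grey bar about 0. Ppp1r15a in library 2, at -0.85, is the point farthest from its own mean, with library 3 at 0.60. Trib1 in library 3 and Ddit3 in library 2 also lie below their bars.

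The 5 genes closest to Ppp1r15a in their deviations over the 3 libraries, out of 5970 protein-coding genes with at least 10 CPM, were Gm28048 (distance 0.025), Gm3448 (0.058), Fgl2 (0.118), Ptp4a1 under its second identifier (0.184) and Alkbh5 (0.196). The distance is Euclidean on log2 CPM deviations, and the deviations of Ppp1r15a were 0.25, -0.85 and 0.60 in libraries 1, 2 and 3. With 3 libraries such a likeness is a description only.

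The annotated transcripts of Ppp1r15a differ in whether the first intron is present. Ppp1r15a-201 has 3 exons of 274, 1653 and 406 bases, and Ppp1r15a-202 begins at base 123 of the gene and runs unbroken through the 603 bases of the first intron of Ppp1r15a-201. Ppp1r15a-202 took 67.5%, 69.4% and 57.1% of the gene's abundance in libraries 1, 2 and 3 (mean 64.7% ± 6.65) and Ppp1r15a-201 took 31.0%, 30.6% and 23.7%. The form with the intron was the larger in every library. Ppp1r15a-203, of 389 nt, took 1.53%, 0% and 19.3%, and in library 3 it made 102 of the 531 TPM from 267 expected counts. Of its bases 358 lie in the last exon, where the gene overlaps Tulp2. In the second table the shares were 68.9% ± 3.83 for Ppp1r15a-202, 24.96% ± 0.49 for Ppp1r15a-201 and 6.11% ± 4.07 for Ppp1r15a-203. Because transcripts overlap, a split between them is the quantifier's estimate, and reads inside an intron can only be given to a model that holds it.

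**Figure D3:**
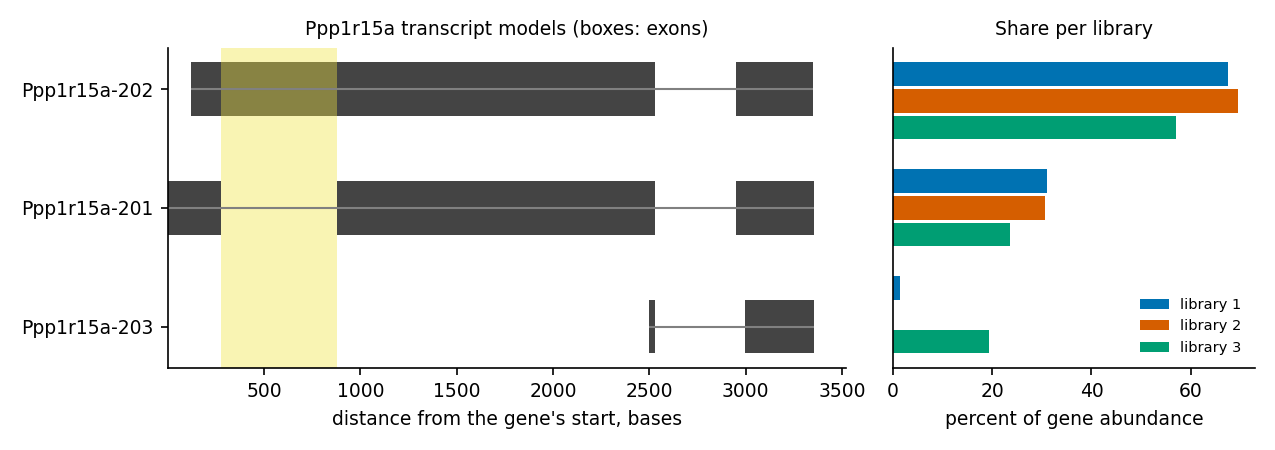
Left, exons (boxes) and introns (lines) of the 3 Ppp1r15a transcripts by distance in bases from the gene's start, with the 603-base first intron of Ppp1r15a-201 shaded; right, the percent of the gene's abundance given to each transcript in each library. Ppp1r15a-202, which holds the shaded bases, has 57.1% to 69.4%, and Ppp1r15a-203 has 19.3% in library 3 alone.

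Atf4, Ddit3, Trib1 and Xbp1 also had most of their abundance in models that hold at least 200 bases of the introns of their first-numbered transcript, a minimum set after seeing the data. Atf4-203 is a single exon with both introns of Atf4-201, 633 bases, and took 57.1%, 57.0% and 60.4% in libraries 1, 2 and 3. Ddit3-202, a retained-intron model with 823 bases of the introns of Ddit3-201, took 62.5%, 50.7% and 60.5%, and Ddit3-201 took 38.9% ± 9.75 on average. Trib1-202, which has 1918 bases of the introns of Trib1-201, took 61.97%, 65.5% and 65.2%. For Xbp1 the retained-intron model Xbp1-202 took 43.9%, 52.6% and 43.5%, Xbp1-203 with the whole 300-base intron 23.4% ± 2.10, and Xbp1-201 19.5% ± 3.12. Trib3-203, a retained-intron model with 99 such bases, lies under that minimum and took 66.4%, 0% and 0% of Trib3, an undetected gene. Ppp1r15b has no such model, and its Ppp1r15b-201 took 79.6%, 71.2% and 71.0%. Ddit4, Sesn2 and Chac1 have 1 annotated transcript each, so their intron reads have no model of their own. The 5 genes with a model over the minimum kept more than 50% there in 3 of 3 libraries.

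The share was also summed over all such models of a gene, likewise after seeing the data. It was 64.7% ± 6.65 for Ppp1r15a, 58.2% ± 1.91 for Atf4, 57.9% ± 6.35 for Ddit3, 64.2% ± 1.97 for Trib1 and 80.5% ± 3.12 for Xbp1. Over the 7852 detected protein-coding genes with such a model the median was 40.6% ± 1.17, with quartiles of 22.8% and 59.0%. Xbp1 lay above 93.0% of these genes, Ppp1r15a above 80.9% and Ddit3, the lowest of the 5, above 73.8%. The second table gave 68.9%, 59.6%, 55.6%, 64.3% and 85.8% for Ppp1r15a, Atf4, Ddit3, Trib1 and Xbp1, against 43.0% over all such genes. No spliced, cytoplasmic RNA was analysed here to set beside these shares.

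**Figure D4:**
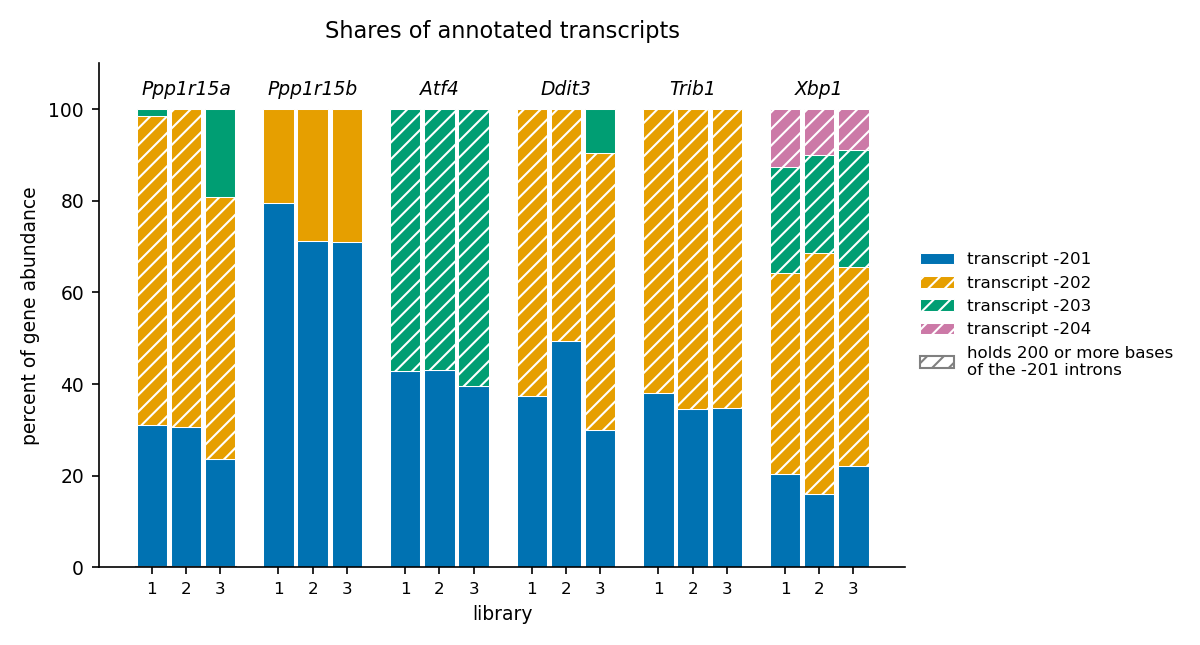
Percent of a gene's abundance in each annotated transcript, for the 6 detected genes with more than 1 transcript in libraries 1, 2 and 3; hatching marks models with at least 200 bases of the introns of the first-numbered model, and the 105-nt Ddit3 entry at 0 is left out. Hatched models hold more than 50% of Ppp1r15a, Atf4, Ddit3, Trib1 and Xbp1 in every library, and Ppp1r15b has none.

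Other genes of the pathways were taken from lists, and their medians are over all listed genes, undetected ones included, beside a median of 4.94 ± 1.75 TPM over detected protein-coding genes. The 10 genes themselves had a median of 9.72 ± 3.24 TPM. In the second table the medians of 3 lists were over 1.5 times as high as those given below, at 10.5 TPM for the phosphatase list, 4.89 TPM for the ATF4 list and 30.8 TPM for the tribbles list, against 7.96 ± 2.41 TPM over the same detected protein-coding genes. Of the eIF2 kinases and the subunits of eIF2 and its exchange factor 12 of 12 were detected, with a median of 2.88 ± 1.18 TPM. The highest was Eif2ak2, which encodes the double-stranded-RNA sensor PKR, at 47.5 ± 14.6 TPM. Eif2ak4 (GCN2, the amino acid sensor) followed at 26.8 ± 4.83 TPM and Eif2s2 (eIF2 beta) at 7.28 ± 2.45 TPM. Eif2ak3 (PERK, the endoplasmic reticulum sensor) and Eif2ak1 (HRI, the haem-regulated kinase), named after their values were seen, were lower, at 3.11 ± 1.41 and 2.66 ± 1.13 TPM.

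The catalytic subunits of protein phosphatase 1 and 3 other partners were all detected, 6 of 6, with a median of 5.84 ± 2.70 TPM. Ppp1r10, which encodes the nuclear targeting subunit PNUTS, was highest at 86.0 ± 44.6 TPM, followed by the catalytic subunits Ppp1cc at 20.6 ± 6.95 and Ppp1cb at 7.44 ± 3.79 TPM. Ppp1r15a was above Ppp1r10 in 3 of 3 libraries, at 184, 99.8 and 531 TPM against 66.0, 54.8 and 137 TPM.

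The partners and targets of ATF4 ranged most widely, with 20 of 26 detected and a median of 2.21 ± 1.16 TPM. Nfe2l2, the gene of the antioxidant regulator NRF2, had 256 ± 131 TPM, the growth factor gene Vegfa 253 ± 115 TPM and the stress factor gene Atf3 136 ± 68.5 TPM. The second table put these 3 genes at 275, 411 and 352 TPM, each above its 225 TPM for Ppp1r15a. The place of Ppp1r15a above them thus depended on the quantification and, for Nfe2l2 and Vegfa, on the library. In the first quantification Ppp1r15a had 184, 99.8 and 531 TPM in libraries 1, 2 and 3. Nfe2l2, with 200, 161 and 406 TPM, was above it in libraries 1 and 2. Vegfa, with 134, 260 and 364 TPM, was above Ppp1r15a in library 2. Atf3, with 120, 77.6 and 212 TPM, was below Ppp1r15a in every library. Asns (asparagine synthetase) and Psat1 (serine synthesis), named after their values were seen, had 0.81 ± 0.23 and 1.86 ± 1.51 TPM. Mthfd2, Slc7a5, Phgdh, Vldlr, Fgf21 and Cth were under the detection minimum, Vldlr, Fgf21 and Cth being named after their values were seen. Fgf21 and Cth had 0 counts in every library. The second table gave Cth 1.55, Slc7a5 1.19, Mthfd2 1.09, Vldlr 0.13 and Phgdh 0.096 TPM, and Fgf21 0. Mthfd2 missed the minimum narrowly, with a mean of 9.67 counts.

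In the IRE1 and ATF6 branch 23 of 25 genes were detected, with a median of 7.49 ± 2.08 TPM. The chaperone genes Hspa5 (BiP) and Hsp90b1 (GRP94) had 85.2 ± 31.2 and 54.7 ± 14.6 TPM. Ern1, the gene of IRE1 itself, had 48.7 ± 16.9 TPM. Xbp1 was below it in 3 of 3 libraries, at 9.66, 16.1 and 18.3 TPM against 41.2, 36.9 and 68.1 TPM for Ern1. Sec61b and Sdf2l1 were undetected, at 0.40 and 0.24 TPM, though the second table gave Sdf2l1 3.96 TPM. The XBP1 target Dnajb9, named after its value was seen, had 1.18 ± 1.15 TPM.

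The partners of the tribbles proteins were all detected, 8 of 8, with a median of 18.3 ± 3.89 TPM. Cop1, the ligase that TRIB1 works with, was highest at 60.1 ± 8.73 TPM, and Akt1 had 35.6 ± 9.29 TPM. Cebpa, the gene of the TRIB1 substrate C/EBP alpha, named after its value was seen, was lowest at 0.72 ± 0.13 TPM. Of the genes that control mTORC1 17 of 18 were detected, with a median of 9.94 ± 2.40 TPM. Rptor (RAPTOR) had 33.4 ± 6.96, Rheb 30.0 ± 10.2 and Tsc2 27.9 ± 7.86 TPM. Ddit4l, a paralog of Ddit4, was undetected, at 0.007 TPM, though the second table gave it 0.586 TPM. Sesn2 was below its paralog Sesn1, likewise named after its values were seen, in 3 of 3 libraries, at 0.97, 1.40 and 2.18 TPM against 10.3, 13.3 and 24.4 TPM.

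**Figure D5:**
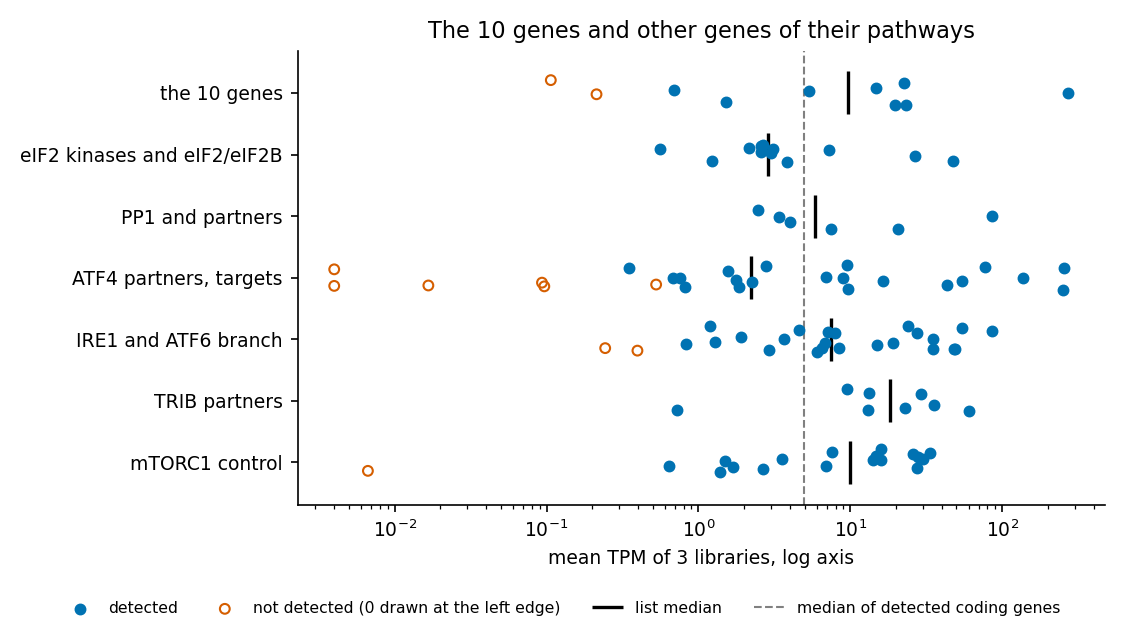
Mean TPM over 3 libraries (log axis) of the 10 genes and of 6 lists of pathway genes, with detected genes filled, undetected genes open, the list median as a bar and the median of detected protein-coding genes as a dashed line. Ppp1r15a at 271 TPM is beside Nfe2l2 at 256 and Vegfa at 253 TPM at the right edge, and the list medians run between 2.21 and 18.3 TPM. The second table turns this order of the 3 means round. In the values drawn here, Nfe2l2 is above Ppp1r15a in libraries 1 and 2, and Vegfa is above it in library 2.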

How the data were processed

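The authors deposited, for each of the 3 libraries, a gene table and a transcript table with expected counts and TPM, a posterior mean with its credible bounds as a signal, and each transcript's percent of its gene, per the file headers. Another quantification of the transcripts, the second table, gives estimated counts and TPM, per the file headers. Build mm10 and GENCODE M21 are named in the deposited notes. Quantifiers, their versions and the use of strand were not stated in any label or header used. All 55536 gene identifiers matched M21. The 26345 entries that name no gene, with 1.03%, 0.245% and 0.218% of expected counts in libraries 1, 2 and 3, were left out of totals and tests. No 2 libraries agreed within sampling noise.

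The genes, lists and tests were chosen with earlier results of these data known. Named genes were the 10 genes, the 3 highest and up to 3 undetected of each list, 5 like Ppp1r15a and overlapping genes, and others are marked as named after their values were seen. The value of 1 listed gene is not reported here. Contrasts used log2(TPM + 0.1) with an exact permutation over sign flips, two-sided. The spread between libraries used edgeR 4.0.16 (R 4.3.3) on rounded expected counts of all genes, with TMM scaling, filterByExpr and an intercept-only quasi-likelihood fit whose F ratio sets a gene's deviance against the trended prior, and was tested on simulated data. log2 CPM had a prior count of 0.5. Alternatives were the second table, posterior means, CPM, TPM rescaled without genes under 300 nt, pseudocounts of 1 and 0.01, DESeq2 1.42.0 size factors, no filter, robust fitting, other detection minimums and leaving out each library. Promoter windows came from RefSeq on GRCm38.p6. Tables and plots were made in Python 3.11.15 (pandas 2.3.3, numpy 2.4.6, matplotlib 3.10.9). The bound on the 0 counts of Chac1 covers counting error only. The authors' credible intervals describe a value within a library and do not cover the spread between libraries.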

Additional observations from a re-analysis of the deposited data

How the results depend on the processing

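Of the 4 contrasts, 3 kept their sign under every alternative, and Atf4 minus Ddit3 (0.23) turned to -1.51 in the second quantification and to -0.36 there without the 105-nt Ddit3 entry, an alternative added after seeing the data; the cause was not tested. Without 1 library each, the contrasts ran between 5.05 and 5.79 for Ppp1r15a minus Ppp1r15b, 0.16 and 0.29 for Atf4 minus Ddit3, 5.84 and 6.77 for Trib1 minus Trib3, and -1.27 and -0.96 for Ddit4 minus Sesn2. In CPM, which has no length correction, these contrasts were 4.301, 1.48, 7.95 and -2.25.

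TPM rescaled without genes under 300 nt was higher by construction, with means of 734 for Ppp1r15a, 15.03 for Ppp1r15b, 65.4 for Atf4, 56.0 for Ddit3, 1.88 for Ddit4, 66.7 for Trib1, 0.587 for Trib3, 0.293 for Chac1, 42.0 for Xbp1 and 4.26 for Sesn2, and it put Trib1 2nd and Atf4 3rd. Other levels of the 10 genes moved beyond 1 SD only for Ddit3 in the second quantification (59.7 TPM) and Trib3 as a posterior mean (0.49 TPM). Without 1 library each, mean TPM ran between 142 and 357 for Ppp1r15a, 0.425 and 0.84 for Ddit4, 0.115 and 0.295 for Trib3, and 0.05 and 0.16 for Chac1. Ppp1r15a stayed first of the 10 genes under every alternative, and Atf4, Trib1, Ddit3 and, in CPM, Ppp1r15b changed places. Of the 94 other listed genes, 46 moved beyond 1 SD in the second quantification, an alternative added after seeing the data. All 46 were higher there, among them Atf3 (352 TPM), Vegfa (411), Cop1 (97.6) and Asns (2.22). List medians moved there to 10.5 TPM for the phosphatase list, 4.89 for the ATF4 list, 10.25 for the IRE1 and ATF6 list and 30.8 for the tribbles list, and the other 2 stayed within 1 SD. The median of detected protein-coding genes was 7.96 TPM there, against 4.94 TPM. Without 1 library each, every list median stayed within 1 SD.

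The spread test called 117 of 23976 genes with no filter, 7 of 21781 in the second quantification and 0 with DESeq2 size factors or robust fitting. Without replicate 1, 2 or 3 it called 17, 49 and 0 genes, a range of 0 to 49, with 2 libraries a fit. None of the 8 tested genes was called in any of these. The share of Ppp1r15b-201 moved to 92.1% in the second quantification, against 73.9%, and the other 5 leading transcripts stayed within 1 SD there. The number detected was 7 at a minimum of 50 counts and 8 otherwise. The share of Xbp1 RNA spliced by IRE1 was not run, since no annotated Xbp1 transcript has the 26-base intron. No paired analysis was possible because there is 1 group. With 3 libraries no contrast can pass 0.05, and 2 of the 10 genes rest on fewer than 10 counts.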
